A study of Mus musculus with 6 samples.

Results

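Levels are described here for 10 genes that are widely used as direct transcriptional targets of YAP, namely Cyr61, Ctgf, Ankrd1, Amotl2, Axl, Crim1, Myof, Nt5e, F3 and Gadd45a, among 14499 genes measured in mouse liver. The members were listed by symbol, by a rule that uses no measured value, although earlier results of these data were known when they were chosen. Each symbol had 1 row in the table, and all 10 passed the filter on low values, against 11839 of the 14499 genes. Total liver RNA was sequenced in 3 wild-type libraries (WT_DDC) and in 3 in which Arid1a had been deleted in hepatocytes alone (Arid1a_KO_DDC). Mice of both groups were 10 weeks old on a C57Bl/6; 129Sv background. All had 2 weeks of injury by DDC, a dietary toxin that blocks haem synthesis, clogs small bile ducts with porphyrin and makes ductular cells expand, so the wild-type livers are injured livers too. The promoter that drives the deletion is not stated in the labels, nor is it said which libraries are separate animals, so p-values reflect only how far these libraries scatter. Levels are in FPKM, fragments scaled by transcript length and by the mapped total, and so can be compared between genes.

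YAP and its paralog TAZ are transcriptional co-activators that bind no DNA themselves and act mainly through TEAD transcription factors. The Hippo kinases phosphorylate them and keep them out of the nucleus, and loss of that restraint, for example after injury or stretch, lets TEAD-bound genes be transcribed. ARID1A is a subunit of BAF, a chromatin remodeller that opens enhancers, and the series asks whether hepatocytes need it to respond to YAP during liver injury. In liver, YAP activity is high in bile duct cells, low in resting hepatocytes, and rises with injury; stellate cells, endothelial cells and macrophages also transcribe several of these genes.

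The core of the TEAD recognition sequence, GGAATG or CATTCC on the other strand, was searched in the RefSeq promoter windows of the members (GRCm38.p6, 250 bases before to 50 bases after the annotated start), since TEAD is the factor through which YAP acts. A window was matched for 9 of the 10 members; Ctgf had no entry. It was found in 5 of those 9, Cyr61, Ankrd1, Amotl2, Axl and Crim1, while 14.7% of all 32851 windows held it. Of the other genes of the published 22-gene YAP/TAZ signature that holds all 10 members, 2 of 6 with a window held it, Lats2 and Ptpn14. The 4 members with a match and the highest mean level are shown 5′ to 3′ on the strand of the gene, with the motif in capitals. For Axl (chr7:25788734-25788983, minus strand), Cyr61 (chr3:145649986-145650235, minus strand) and Crim1 (chr17:78199998-78200247, plus strand) these are the 250 bases before the start. For Amotl2 (chr9:102717727-102717756, plus strand) only 30 bases are shown, because GENCODE places this site in an exon of another Amotl2 transcript.
Axl: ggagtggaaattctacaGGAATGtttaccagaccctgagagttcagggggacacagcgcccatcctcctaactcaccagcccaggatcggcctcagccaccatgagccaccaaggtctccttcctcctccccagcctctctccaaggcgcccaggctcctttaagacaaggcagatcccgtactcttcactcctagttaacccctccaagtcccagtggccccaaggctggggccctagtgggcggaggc
Cyr61: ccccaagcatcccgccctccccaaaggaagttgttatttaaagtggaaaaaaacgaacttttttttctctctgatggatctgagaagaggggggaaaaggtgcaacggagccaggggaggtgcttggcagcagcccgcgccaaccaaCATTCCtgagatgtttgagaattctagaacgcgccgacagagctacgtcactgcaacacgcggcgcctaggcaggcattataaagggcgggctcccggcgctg
Amotl2: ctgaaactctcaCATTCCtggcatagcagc
Crim1: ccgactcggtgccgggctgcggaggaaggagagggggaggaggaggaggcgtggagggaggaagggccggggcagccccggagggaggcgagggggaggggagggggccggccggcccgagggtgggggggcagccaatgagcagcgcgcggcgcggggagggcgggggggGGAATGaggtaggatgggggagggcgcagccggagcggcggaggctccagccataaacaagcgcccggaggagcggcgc
Counted back from the start, the motif began at base -233 in Axl, -103 in Cyr61, -65 in Amotl2 and -79 in Crim1. Ankrd1 held it at 2 places, beginning at -210 and -123. The AP-1 motif TGANTCA, searched on both strands, was in 7.81% of all windows and in 1 member, F3, at 2 places beginning at -146 and -135. The CArG box bound by SRF was in 1.63% of all windows and in 0 of the 9 members' windows. These are matches of letters in a short window and do not show that a factor was bound in these livers.

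No member passed the test between genotypes, although 4 of the 10 had all 3 knockout libraries below all 3 wild-type libraries. These 4 were Cyr61, Axl, Crim1 and Myof. Over all genes tested, 9.56% had knockout libraries wholly below wild type and 7.09% wholly above, and 0 members were wholly above. By limma with Benjamini-Hochberg adjustment over 11839 genes, 0 of the 10 members passed an adjusted p of 0.05, where 0.49% of all genes did, 0.355% lower and 0.135% higher in knockout. At an unadjusted limma p under 0.05 there were 2 members, Cyr61 and Myof, both lower, where 11.1% of all genes were in either direction and 6.5% lower. The difference was negative for 8 members and for 49.4% of all genes, and positive for Nt5e and Gadd45a. The median log2 difference of the members was -0.25 on the log2(FPKM + 1) scale, beside 0.0034 over all genes tested, and -0.11 without Arid1a_KO_DDC replicate 3. With 3 libraries a side, 0.1 is the smallest two-sided p of an exact permutation test.

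**Figure D1:**
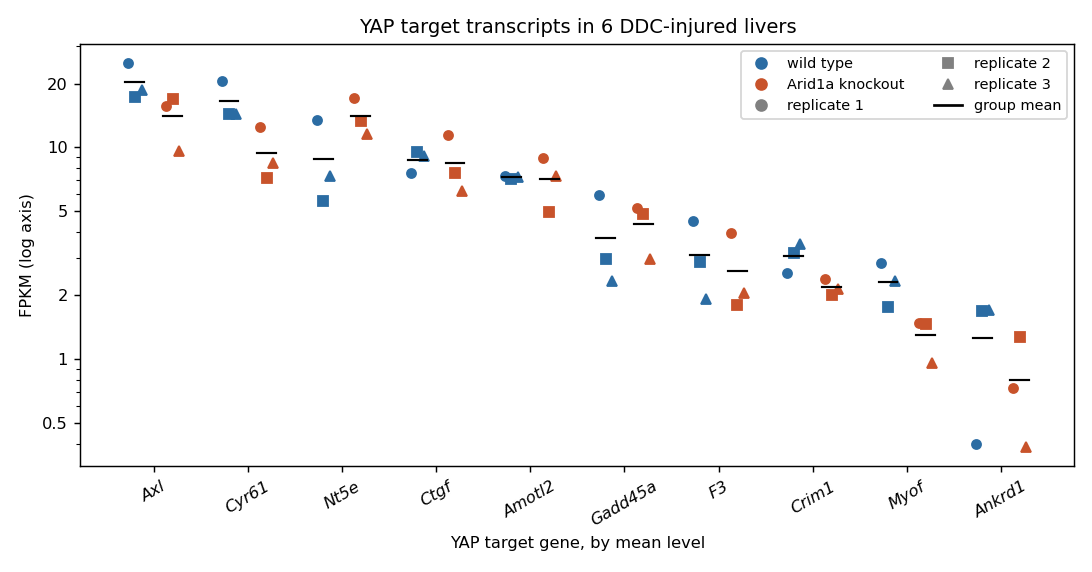
FPKM of the 10 YAP target genes in each library on a log axis, ordered by mean level, with wild-type libraries in blue, knockout libraries in orange, marker shapes for replicate numbers and a bar at each group mean. The orange points of Axl, Cyr61, Crim1 and Myof all lie below the blue ones, and those of the other 6 genes overlap with the blue.

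The members spanned a 16.7-fold range of mean level, from Axl at 17.2 ± 4.95 FPKM to Ankrd1 at 1.03 ± 0.609 FPKM (SD over all 6 libraries). Axl stood above Cyr61 (12.9 ± 4.85 FPKM) in 6 of 6 libraries and by more than the SD of their difference. Cyr61, Nt5e (11.4 ± 4.28 FPKM), Ctgf (8.57 ± 1.84 FPKM) and Amotl2 (7.15 ± 1.27 FPKM) followed, and no neighbouring pair of these 4 differed beyond the SD of its difference. Amotl2 stood above Gadd45a (4.05 ± 1.47 FPKM) in 6 of 6 libraries, and Gadd45a above F3 (2.85 ± 1.15 FPKM) in 6 of 6. F3 and Crim1 (2.63 ± 0.592 FPKM) did not differ beyond their spread. Crim1 stood above Myof (1.81 ± 0.685 FPKM) in 5 of 6 libraries. Myof was above Ankrd1 in 6 of 6, but by less than the SD of their difference. These means pool both genotypes, and the order at the top differed between them. In wild type Axl, at 20.4 ± 4.07 FPKM, and Cyr61, at 16.5 ± 3.64 FPKM, stood above Nt5e, at 8.78 ± 4.14 FPKM. In knockout Axl, at 14.1 ± 3.91 FPKM, and Nt5e, at 14.0 ± 2.84 FPKM, were level, with Cyr61 at 9.37 ± 2.75 FPKM (SD, n = 3 each), and Nt5e exceeded Axl in replicates 1 and 3.

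Cyr61 and Ctgf encode secreted matricellular proteins of the CCN family, which bind integrins, and are the most used readouts of YAP activity. Cyr61 (ENSMUSG00000028195, protein coding, chr3:145646976-145649981 on GRCm38) was at 20.7, 14.4 and 14.3 FPKM in wild-type replicates 1, 2 and 3 and, in the same order, at 12.4, 7.17 and 8.48 FPKM in the knockout. Wild-type replicate 1 was the highest, knockout replicate 2 the lowest, and the groups did not overlap. The knockout mean was 0.568 times the wild-type mean. The log2 difference was -0.77 (SE 0.24, 95% interval -1.33 to -0.21; limma adjusted p = 0.296; exact permutation p = 0.1). Over 17 alternatives it stayed between -0.97 and -0.58 and did not pass, with the smallest adjusted p in limma, 0.064, with a term for the library numbers. In total liver RNA, fewer cells of a type and less RNA per cell cannot be told apart.

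Ctgf (ENSMUSG00000019997, protein coding, chr10:24595442-24598683) was at 7.58, 9.51 and 9.10 FPKM in wild type and at 11.5, 7.55 and 6.25 FPKM in knockout. The highest and the lowest library were both knockout, replicates 1 and 3, so the wild-type values lay within the knockout range. The log2 difference was -0.079 (SE 0.22, 95% interval -0.61 to 0.45; limma adjusted p = 0.923; exact permutation p = 0.9), and 0.091 without Arid1a_KO_DDC replicate 3. The interval of Ctgf covers the difference measured for Myof and Axl but not that of Cyr61; the difference between Cyr61 and Ctgf was not tested.

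Axl, F3, Nt5e and Crim1 encode proteins of the cell surface. Axl (ENSMUSG00000002602, protein coding, chr7:25757273-25788705), a receptor tyrosine kinase for Gas6 that is also carried by macrophages, was at 25.0, 17.3 and 18.8 FPKM in wild type and at 15.6, 17.0 and 9.65 FPKM in knockout. The groups did not overlap, but wild-type replicate 2 and knockout replicate 2 lay close together, and knockout replicate 3 was well below the rest. Axl differed by -0.52 log2 units (SE 0.24, 95% interval -1.10 to 0.056; limma adjusted p = 0.487), and -0.29 without Arid1a_KO_DDC replicate 3. Crim1 (ENSMUSG00000024074, protein coding, chr17:78200248-78376592), a transmembrane protein that binds bone morphogenetic proteins, was at 2.54, 3.18 and 3.51 FPKM in wild type and at 2.38, 2.02 and 2.15 FPKM in knockout. Its knockout libraries lay closer together than those of any other member, with an SD of 0.182 FPKM. Crim1 differed by -0.35 log2 units (SE 0.15, 95% interval -0.72 to 0.015; limma adjusted p = 0.472), and by -0.17 with a pseudocount of 5.

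Nt5e (ENSMUSG00000032420, protein coding, chr9:88327197-88372092), the ecto-enzyme CD73 that makes adenosine from AMP, went against the direction of most members. It was at 13.5, 5.57 and 7.33 FPKM in wild type and at 17.1, 13.4 and 11.6 FPKM in knockout. Wild-type replicate 1 lay among the knockout values, while wild-type replicates 2 and 3 were below all of them. Its log2 difference was 0.68 (SE 0.31, 95% interval -0.043 to 1.41; limma adjusted p = 0.478; exact permutation p = 0.3). It was 1.01 without WT_DDC replicate 1 and 0.44 without WT_DDC replicate 2. F3 (ENSMUSG00000028128, protein coding, chr3:121723537-121735048), tissue factor, the starter of the extrinsic clotting cascade, was at 4.52, 2.89 and 1.92 FPKM in wild type and at 3.94, 1.79 and 2.05 FPKM in knockout. Replicate 1 was the highest library of each group, and the groups overlapped. For F3 the log2 difference was -0.19 (SE 0.31, 95% interval -0.92 to 0.54; limma adjusted p = 0.859), and 0.047 without WT_DDC replicate 1.

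Myof and Amotl2 encode proteins at the inner face of the membrane and at cell junctions. Myof (ENSMUSG00000048612, protein coding, chr19:37899036-38043577), myoferlin, a ferlin of membrane repair and vesicle fusion, was at 2.86, 1.77 and 2.34 FPKM in wild type and at 1.48, 1.46 and 0.96 FPKM in knockout. The groups did not overlap, and the knockout mean was 0.559 times the wild-type mean, the lowest such ratio of the 10 members. Myof differed by -0.53 log2 units (SE 0.19, 95% interval -0.98 to -0.075; limma adjusted p = 0.369). At this low level the value depends on the pseudocount, being -0.79 with 0.1 and -0.22 with 5. Amotl2 (ENSMUSG00000032531, protein coding, chr9:102716672-102733418), an angiomotin family scaffold that binds YAP and restrains it, was at 7.36, 7.06 and 7.23 FPKM in wild type and at 8.93, 4.96 and 7.35 FPKM in knockout. The wild-type libraries were nearly level and the knockout libraries spread to both sides of them. The log2 difference was -0.056 (SE 0.20, 95% interval -0.54 to 0.43; limma adjusted p = 0.943), and 0.15 without Arid1a_KO_DDC replicate 2.

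Ankrd1 and Gadd45a encode proteins that act largely in the nucleus. Ankrd1 (ENSMUSG00000024803, protein coding, chr19:36111961-36120099), an ankyrin repeat protein induced by stretch, was at 0.398, 1.69 and 1.71 FPKM in wild type and at 0.73, 1.27 and 0.385 FPKM in knockout. It reached 1 FPKM in 3 libraries, the least that the filter allows. The lowest wild-type library, replicate 1, was nearly as low as the lowest knockout library, replicate 3. The log2 difference was -0.30 (SE 0.32, 95% interval -1.06 to 0.46; limma adjusted p = 0.776), and each of 5 libraries moved it by over 1.5 times when left out. It came to -0.62 when WT_DDC replicate 1 was left out, and to -0.15, -0.14 and -0.13 when WT_DDC replicate 2, WT_DDC replicate 3 or Arid1a_KO_DDC replicate 3 was. Leaving out Arid1a_KO_DDC replicate 2 gave -0.49. Gadd45a (ENSMUSG00000036390, protein coding, chr6:67035096-67037457), a growth arrest and DNA damage gene that p53 also induces, was at 5.95, 2.97 and 2.34 FPKM in wild type and at 5.20, 4.84 and 2.98 FPKM in knockout. The wild-type group held both the highest and the lowest library. Gadd45a differed by 0.21 log2 units (SE 0.31, 95% interval -0.53 to 0.96; limma adjusted p = 0.839), and -0.0036 without WT_DDC replicate 3.

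**Figure D2:**
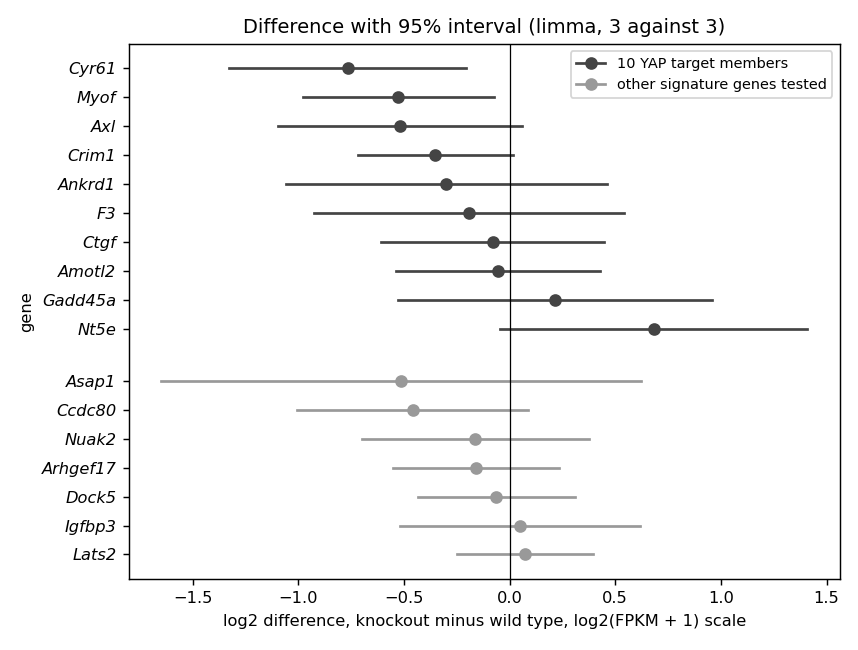
Log2 difference between knockout and wild type with its 95% interval from limma, for the 10 YAP target genes (dark) and the 7 other signature genes tested (grey). The intervals of Cyr61 (-1.33 to -0.21) and Myof (-0.98 to -0.075) lie below 0 before adjustment for the number of genes tested, and the other 15 include 0.

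Libraries of the same genotype also differed from each other across the members. Wild-type replicate 1 held the highest value of 5 members, Cyr61, Axl, Myof, F3 and Gadd45a, and the lowest of 0. Knockout replicate 1 held the highest value of Ctgf, Amotl2 and Nt5e. The lowest values fell mostly in knockout replicates 2 and 3, with 4 members each. Knockout replicate 2 was lowest for Cyr61, Amotl2, Crim1 and F3, and knockout replicate 3 for Ctgf, Ankrd1, Axl and Myof. Summed over the 10 members, the wild-type libraries were at 90.3, 66.4 and 68.6 FPKM and the knockout libraries at 79.3, 61.4 and 51.8 FPKM, so the groups overlapped and replicate 1 was the highest of each. The highest library exceeded the lowest by 1.74-fold for Crim1, the least variable member by this ratio, and by 4.44-fold for Ankrd1, the most variable.

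**Figure D3:**
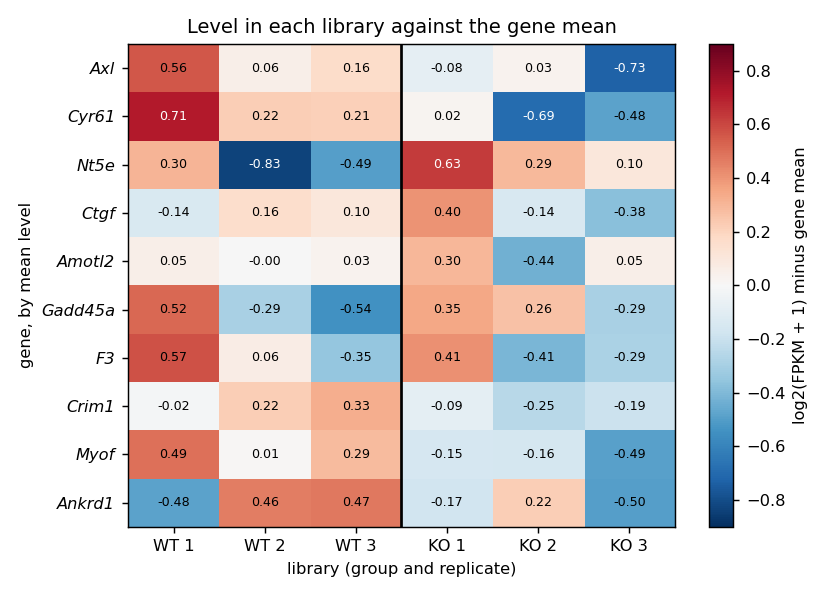
Log2(FPKM + 1) of each YAP target gene in each library minus the mean of that gene over the 6 libraries, with red above and blue below the mean and the value printed in each cell. Knockout replicate 3 is at or below the mean for 8 of the 10 genes, Nt5e and Amotl2 being the exceptions, and wild-type replicate 1 is above it for 7.

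Replicate 1 of both groups has library numbers L0566 and L0567, apart from L0602 to L0605 of the others, and lacks transcripts of the Y-linked gene Ddx3y (0.0527 and 0.0227 FPKM, against 9.27 to 11.3 FPKM in the other 4 libraries). The knockout difference was therefore also taken within each set. It had the same sign in both sets for 6 of the 10 members. For 4 of these, Cyr61, Axl, Crim1 and Myof, the groups did not overlap, so the same sign was fixed beforehand. That leaves F3 and Nt5e, and the share over all genes was not computed. Cyr61 was at -0.69 in replicate 1 and -0.81 in replicates 2 and 3, the closest agreement among the 4 genes whose groups did not overlap. Axl was at -0.64 and -0.46, Myof at -0.64 and -0.47, and Crim1 at -0.067 and -0.49. F3 was at -0.16 and -0.21, and Nt5e was higher in both sets, at 0.33 and 0.86. Ctgf, Ankrd1, Amotl2 and Gadd45a had opposite signs in the sets. In L0602 to L0605 alone, 6 members were wholly below wild type and 2 wholly above, where 2 against 2 libraries put 25.9% of all genes wholly below and 25.9% wholly above.

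**Figure D4:**
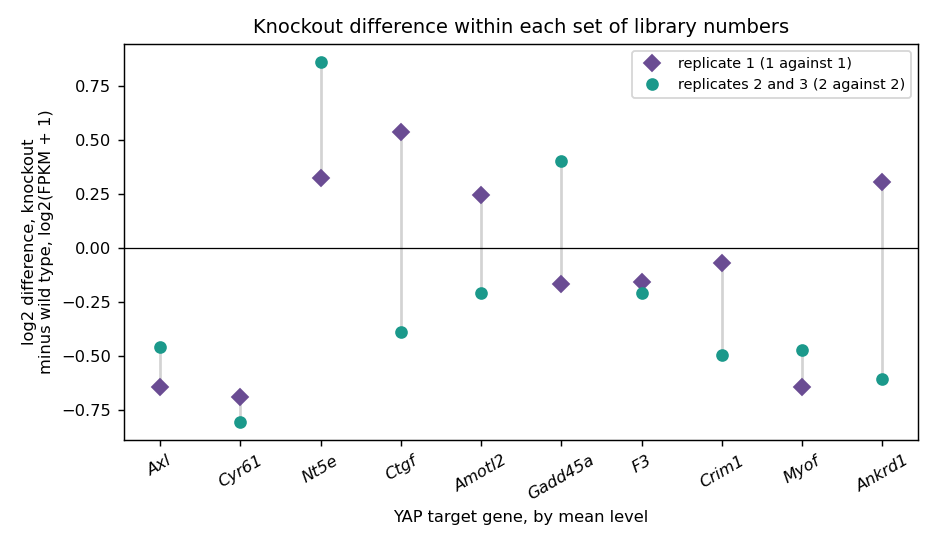
Log2 difference between knockout and wild type within replicate 1 (diamonds, 1 against 1 library) and within replicates 2 and 3 (circles, 2 against 2), for the 10 YAP target genes. Both symbols of Cyr61, Axl, Myof, Crim1 and F3 lie below 0 and both of Nt5e above it, while those of Ctgf (0.54 and -0.39) and Ankrd1 (0.31 and -0.60) lie on opposite sides.

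The rest of the 22-gene signature showed no gene past the test. Of its 12 other genes, 9 were in the table and 7 passed the filter on low values. By limma 0 of these 7 were called and 0 were so at an unadjusted p under 0.05, with 5 negative and 2 positive differences and a median of -0.16; the groups overlapped for all 7. Ccdc80, a secreted matrix protein, was at 8.95, 12.4 and 11.2 FPKM in wild type and at 10.4, 7.38 and 5.60 FPKM in knockout (log2 difference -0.46, SE 0.23, limma adjusted p = 0.519). Its difference was -0.27 without Arid1a_KO_DDC replicate 3 and -0.78 in L0602 to L0605 alone. Asap1, an Arf GTPase-activating protein, was at 10.4, 3.03 and 2.57 FPKM in wild type and at 4.67, 1.92 and 2.39 FPKM in knockout, so wild-type replicate 1 again stood above all others. Its log2 difference of -0.51 (limma adjusted p = 0.737) became 0.016 without WT_DDC replicate 1 and -0.82 without WT_DDC replicate 3. Arhgef17 and Nuak2 were at -0.16 each (limma adjusted p = 0.77 and 0.834). Nuak2 was at 0.018 without WT_DDC replicate 1 and -0.055 without Arid1a_KO_DDC replicate 1, and at -0.29 and -0.32 without WT_DDC replicate 3 or Arid1a_KO_DDC replicate 3. Arhgef17 was at -0.057 without WT_DDC replicate 3 and -0.11 without Arid1a_KO_DDC replicate 3. Igfbp3, the most abundant of these genes, was at 22.3, 15.2 and 12.8 FPKM in wild type and at 17.3, 20.7 and 13.6 FPKM in knockout, and Lats2, a Hippo kinase and feedback target, was between 2.59 and 3.17 FPKM in every library. Tgfb2 and Rbms3 were below the filter. Tgfb2 was at 1.19, 0.775 and 0.743 FPKM in wild type and at 0.653, 0.559 and 0.431 FPKM in knockout, and Rbms3 at 0.591, 0.63 and 0.629 against 0.39, 0.519 and 0.18. For both, all knockout libraries lay below all wild-type libraries, as for 9.56% of the genes tested, but at these low levels neither was tested.

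Transcripts of the pathway upstream of the members did not differ past the test. Of 19 Hippo components listed, 17 were tested and 0 were called by limma, where 0.49% of all genes were. At an unadjusted limma p under 0.05 there was 1, where 11.1% of all genes were. Of the differences 8 were negative and 9 positive, with a median of 0.06. Yap1 was at 13.1, 14.9 and 13.8 FPKM in wild type and at 17.5, 12.7 and 15.4 FPKM in knockout (log2 difference 0.11, SE 0.15, limma adjusted p = 0.836). The difference was 0.066 without WT_DDC replicate 1, 0.0057 without Arid1a_KO_DDC replicate 1, 0.22 without Arid1a_KO_DDC replicate 2 and -0.036 in L0602 to L0605 alone. Wwtr1, which encodes TAZ, was at -0.014 (limma adjusted p = 0.98) and Tead1 at -0.053 (limma adjusted p = 0.941). Both signs turned under quantile normalization. The 1 component with an unadjusted p under 0.05 was Tead2, a TEAD factor singled out after its values were seen, at 2.03, 1.54 and 1.17 FPKM in wild type and 1.06, 0.896 and 0.708 FPKM in knockout (-0.44, limma adjusted p = 0.439). Arid1a itself was at 7.85, 5.48 and 5.98 FPKM in wild type and at 6.61, 5.01 and 3.81 FPKM in knockout (-0.29, limma adjusted p = 0.678). It was at -0.12 without Arid1a_KO_DDC replicate 3, -0.16 without WT_DDC replicate 1 and -0.46 without Arid1a_KO_DDC replicate 1. A gene-level value that also covers exons outside a deletion and cells other than hepatocytes does not check the labels.

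Other genes with a profile like that of Cyr61 or Ctgf were sought among 7365 genes with a mean of at least 5 FPKM, by the root mean square distance between centred log2(FPKM + 1) values over the 6 libraries. With so many genes and 6 libraries, close matches can be found for many profiles, and how often was not counted. Nearest to Cyr61 were Tapbpl (distance 0.0747), a peptide editor of MHC class I, Cdh1 (0.0982), E-cadherin, and Plpp1 (0.107), a phospholipid phosphatase. Cdh1 was at 29.4, 24.9 and 24.1 FPKM in wild type and at 20.9, 13.1 and 14.8 FPKM in knockout, with the same lowest library as Cyr61. Nearest to Ctgf were Cd63 (0.0602), a tetraspanin of late endosomes, Snx1 (0.0807), a sorting nexin, and Calm3 (0.0842), a calmodulin gene. Cd63 was at 117, 151 and 140 FPKM in wild type and at 165, 109 and 103.97 FPKM in knockout, with knockout replicate 1 the highest and replicate 3 the lowest as for Ctgf.

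Markers of the cells that a liver holds beside hepatocytes moved with the members in part. The 10 hepatocyte markers, all in the table, summed to 41621 to 44316 FPKM in wild type and 44054 to 54449 FPKM in knockout. Most of that sum was Alb, at 26589 to 34012 FPKM. Of these 10 markers, 4 had negative differences and 6 positive, where 49.4% of all genes tested were negative. The 11 stellate and fibroblast markers, all in the table, summed to 323, 216 and 289 FPKM in wild type and to 245, 189 and 142 FPKM in knockout, with knockout replicate 3 the lowest. Dcn was the largest part, at 200, 99.3 and 154 FPKM in wild type and at 116, 93.3 and 60.2 FPKM in knockout. Col1a1 was lowest in wild-type replicate 1, at 11.3 FPKM. Of the 11 markers, 9 had negative differences and 2 positive. For the 9 endothelial markers, all in the table, the sums were 57.1 to 88.9 FPKM against 31.7 to 79.1 FPKM, and for the 9 macrophage markers, all in the table, 546 to 839 FPKM against 377 to 565 FPKM. Of the 8 endothelial markers tested, 8 had negative differences, and of the 9 macrophage markers 8 had, with 1 positive. Median log2 differences were -0.52 for the stellate, -0.48 for the endothelial and -0.49 for the macrophage markers, beside -0.25 for the 10 members. The hepatocyte median was 0.06. Wholly below wild type were 3 stellate, 1 endothelial and 3 macrophage markers, and 0 were wholly above. Wild-type replicate 1, highest for 5 members, was also the highest in the stellate and macrophage sums, and knockout replicate 3 the lowest in the stellate, endothelial and macrophage sums. The endothelial sum was highest in wild-type replicate 3. In the cholangiocyte sums wild-type replicate 1 was the lowest, at 135 FPKM, and knockout replicate 3 the highest, at 432 FPKM. Knockout replicate 2, lowest for 4 members, was lowest in none of the stellate, endothelial and macrophage sums. The 8 cholangiocyte markers in the table had sums of 135 to 397 FPKM in wild type and 220 to 432 FPKM in knockout, most of it Spp1. Without Spp1, which was taken out after its values were seen, the other 7 summed to 27.7, 49.1 and 43.3 FPKM in wild type and to 22.6, 25.5 and 25.8 FPKM in knockout, and these groups did not overlap. Of the 8, 6 had negative differences, with a median of -0.60, and 3 were wholly below wild type, Cldn4, Sox9 and Epcam. Over all genes tested, 49.4% were negative, 9.56% wholly below, 7.09% wholly above and 0.355% called lower. Cldn4, a tight junction protein, was called lower by limma (log2 difference -1.42, SE 0.19, adjusted p = 0.0386). With a term for replicate or without Arid1a_KO_DDC replicate 3, 0 genes were called, so the Cldn4 call did not hold there. Onecut1, a transcription factor of liver and bile duct development, lay wholly above wild type without passing (1.03, limma adjusted p = 0.259). It was at 0.419, 0.33 and 0.854 FPKM in wild type and at 1.05, 3.01 and 2.62 FPKM in knockout. It thus passed the filter on low values through the knockout libraries alone, which limits its test.

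Blood cell lists were also measured. The sums were 10.6 to 14.8 FPKM in wild type and 3.09 to 13.8 FPKM in knockout for 6 of 8 T and NK cell markers. For 4 of 6 B and plasma cell markers they were 1527 to 5513 FPKM in wild type and 20.2 to 7669 FPKM in knockout. For 4 of 5 neutrophil markers they were 33.5 to 59.5 FPKM in wild type and 14.0 to 27.4 FPKM in knockout, the only one of the 9 lists whose groups did not overlap when all its markers were summed. Of 4 mesothelial markers 3 were in the table, with Msln, Upk3b and Wt1 below 1 FPKM in every library and Upk3b listed at 0 in 3. No marker of the 9 lists that was in the table was listed at 0 in all libraries. The part of these cells in the levels of the YAP targets was not tested.

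**Figure D5:**
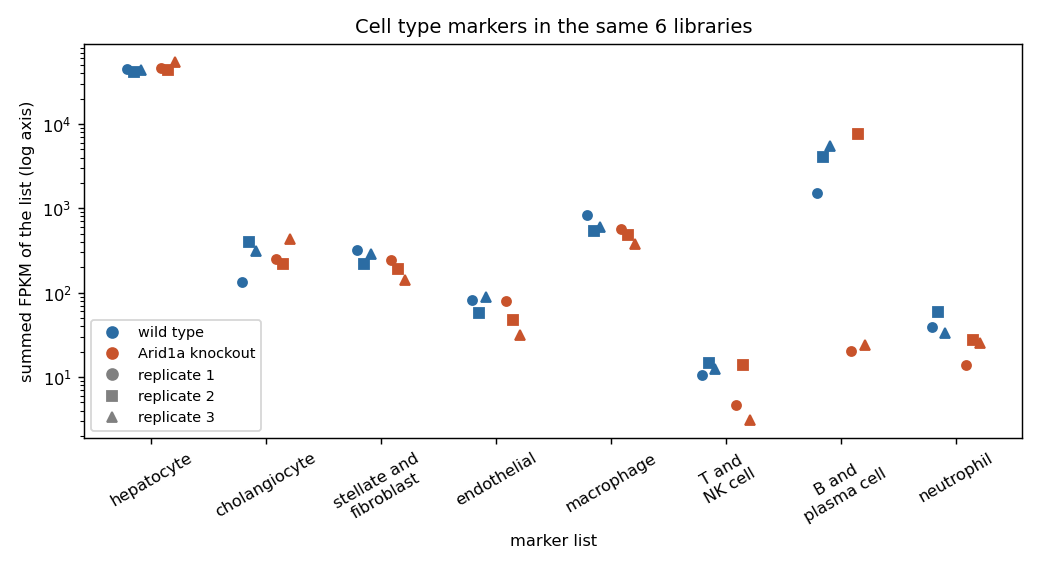
Summed FPKM of 8 lists of cell type markers in each library on a log axis, with wild-type libraries in blue, knockout libraries in orange and marker shapes for replicate numbers. The stellate, endothelial and macrophage sums are lowest in knockout replicate 3 (142, 31.7 and 377 FPKM), and the neutrophil sums are lower in all knockout libraries (14.0 to 27.4 FPKM) than in wild type (33.5 to 59.5 FPKM). The cholangiocyte sum is highest in knockout replicate 3 (432 FPKM).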

How the data were processed

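Values came as log2 FPKM, computed and deposited by the authors with a column for each library. TopHat2 2.0.6, Cufflinks and the builds mm10 and GRCm38 are named in the submitters' processing notes; which annotation served is not stated there. Deposited values were floored at -10 by an offset of 0.000977, which was subtracted to recover FPKM (checked on 60079 values: 100% then had 6 significant digits at a relative tolerance of 1e-07, and 0% before). Steps between values under 0.3 FPKM put the depth of each library at 0.895 to 1.16 times that of WT_DDC replicate 1; absolute depth is unknown.

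FPKM were taken to log2(FPKM + 1), which understates differences at low levels. Genes at 1 FPKM or more in at least 3 of 6 libraries entered limma 3.58.1 (R 4.3.3; trend, two-sided, Benjamini-Hochberg over all genes tested), after a test on simulated data. The members, lists and the rule for naming genes were chosen with earlier results of these data known. Named were all members, the 4 other signature genes of smallest p, Yap1, Wwtr1, Tead1, Arid1a and the 3 genes nearest to Cyr61 and to Ctgf. Igfbp3, Lats2, Tgfb2, Rbms3 and Tead2 were chosen later, with their values known. So were the genes singled out from the marker lists, among them Alb, Dcn, Col1a1, Spp1, Cldn4, Sox9, Epcam and Onecut1. GENCODE M21 (GRCm38), which held 14453 of 14499 identifiers, gave the gene positions. Alternatives were other pseudocounts, filters, scalings and eBayes settings, terms for replicate or library number, and library subsets.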

Additional observations from a re-analysis of the deposited data

Results flagged for a closer look

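The knockout difference of Ctgf, Ankrd1 and Gadd45a pointed one way in replicate 1 (library numbers L0566 and L0567) and the other way in both libraries of each group numbered L0602 to L0605. As an interaction term in limma, L0602 to L0605 minus the other set on the log2(FPKM + 1) scale, the difference was -0.93 for Ctgf (SE 0.26, 95% interval -1.61 to -0.24, limma adjusted p = 0.493). It was -0.91 for Ankrd1 (SE 0.49, adjusted p = 0.619) and 0.57 for Gadd45a (SE 0.42, adjusted p = 0.697). With pseudocounts of 0.1 and 5 it was -1.88 and -0.29 for Ankrd1, 0.70 and 0.32 for Gadd45a, and -1.02 and -0.65 for Ctgf. By limma 0 of the 11839 genes passed for this term, with 1072 at an unadjusted p under 0.05. The first set has 1 library per group, and its library numbers and its lack of Ddx3y transcripts cannot be told apart.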

How the results depend on the processing

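Under all 17 alternatives of the genotype comparison 0 of the members and 0 of the other signature genes were called by limma. The smallest adjusted p was 0.064 for a member and 0.131 for another signature gene. The number of members wholly below wild type was 4 under both scalings, 4 to 5 with 1 library left out and 6 in L0602 to L0605 alone (these were added after seeing the data). With libraries left out, groups that do not overlap stay apart, so the count could not fall below 4 there. Over all genes tested, 8.99% and 8.03% were wholly below under median-of-ratios and quantile scaling. The share was 13.2% to 18.6% with 1 library left out and 25.9% in L0602 to L0605 alone. The members' median was -0.35 to -0.11 with 1 library left out, -0.42 in L0602 to L0605 alone, -0.36 and -0.10 with pseudocounts of 0.1 and 5, and -0.079 with the filter at 5 FPKM, which tests fewer genes. The count over all genes, 58, was 12 without a filter, 92 with a term for library numbers and 0 to 67 with 1 library left out; it was 35, 6 and 2 without WT_DDC replicate 1, 2 and 3 and 0 without Arid1a_KO_DDC replicate 3; the cause was not tested, though such fits have fewer samples. With the replicate block it was 0 genes, and 0 members were called, with Cyr61 at an adjusted p of 0.136; the deviations of same-numbered libraries correlated at 0.346, 0.133 and 0.0212, so the numbers were not taken to pair the libraries. Signs turned for some differences, and the cause was not tested. The largest of these was that of Asap1, -0.51 with all libraries and 0.016 without WT_DDC replicate 1. With 1 library left out the ranges were -0.30 to 0.091 for Ctgf, -0.22 to 0.15 for Amotl2, -0.44 to 0.047 for F3, -0.0036 to 0.53 for Gadd45a, -0.82 to 0.016 for Asap1, -0.32 to 0.018 for Nuak2, -0.16 to 0.058 for Tead1 and -0.061 to 0.081 for Wwtr1. Quantile normalization gave 0.029 for Wwtr1, 0.016 for Tead1 and 0.027 for the F3 difference between library sets, against -0.048. In L0602 to L0605 alone Nuak2 was at 0.13 and Yap1 at -0.036. With no counts or absolute depth, no counting error can be given for Ankrd1 or Myof, which lie near 1 FPKM.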
